A study of Mus musculus with 8 samples.

Results

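The GIMAP family (GTPases of immunity-associated proteins) was described from RNA sequencing of mouse germinal centre B cells. Its members were the rows of the FPKM table whose gene symbol is Gimap1, Gimap3, Gimap4, Gimap5, Gimap6, Gimap7, Gimap8 or Gimap9. All 8 were found among 23234 symbols, no other symbol of the table starts with Gimap, and all 8 passed the filter on low values, as did 10610 genes in all. FPKM are fragments per kilobase of a transcript, relative to all mapped fragments, so levels can be compared between genes.

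There were 4 groups of 2 libraries: Bach2(f/f)Prdm1(f/f) light zone (LZ), Bach2(+/+)Prdm1(f/f) LZ, Bach2(f/f)Prdm1(f/f) dark zone (DZ) and Bach2(+/+)Prdm1(f/f) DZ. They are called Bach2(f/f) LZ, Bach2(+/+) LZ, Bach2(f/f) DZ and Bach2(+/+) DZ below, and every group carries floxed Prdm1 (the plasma cell factor Blimp1), so that the comparison of genotypes is between cells lacking both genes and cells lacking Prdm1 alone, according to the labels. Cells with intact Prdm1 were not analysed here. All donor cells, on a C57BL/6 background, also carry ERT2cre(KI/+), a Cre recombinase that tamoxifen switches on in any cell of the donor, and B1-8hi(KI/+), an antigen receptor heavy chain that binds the hapten NP. Naive donor B cells were transferred into wild-type recipients, which keep their own B cells, and the recipients were given tamoxifen at 3 mg for 3 days and NP-CGG in alum. On day 10 after immunization, NP-binding GL7+ CD38- donor cells were sorted as CD86 high and CXCR4 low (LZ) or CD86 low and CXCR4 high (DZ) from the pooled spleens of 5 recipients, about 30000 cells per library. The ages of the animals are not given in the sources used here, nor is whether replicates are separate pools of mice, and p-values therefore reflect the spread between these libraries only.

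GIMAP proteins are small GTPases found mainly in lymphocytes, where most sit on the membranes of lysosomes, mitochondria, the endoplasmic reticulum or other compartments. They are known for keeping resting lymphocytes alive: loss of Gimap5 causes lymphopenia in rats and mice, and deletion of Gimap1 in mice depletes mature T and B cells. Germinal centre B cells divide in the DZ and are selected on antigen and T cell help in the LZ, and BACH2 is a transcriptional repressor that B cells need for the germinal centre reaction.

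The members lie side by side on mouse chromosome 6, in the order Gimap8, Gimap9, Gimap4, Gimap6, Gimap7, Gimap1, Gimap5, Gimap3 by RefSeq GRCm38.p6, with no other protein-coding gene between them. RefSeq promoter windows (250 bases before the start site to 50 after it) were found for all 8, as 9 windows because Gimap8 has a pair of start sites. Windows of 4 members are printed 5′ to 3′ on the strand of the gene: Gimap3, which differed most between genotypes, Gimap4, which differed most between zones, Gimap6, the most abundant, and Gimap9, which passed in no comparison. Capitals mark matches to 3 motifs searched on both strands: TGANTCA (the core shared by AP-1 and BACH factors), GTAAACA (forkhead core) and TGTGGT (RUNX core, ACCACA on the other strand).
Gimap3, chr6:48770802-48771101, minus strand: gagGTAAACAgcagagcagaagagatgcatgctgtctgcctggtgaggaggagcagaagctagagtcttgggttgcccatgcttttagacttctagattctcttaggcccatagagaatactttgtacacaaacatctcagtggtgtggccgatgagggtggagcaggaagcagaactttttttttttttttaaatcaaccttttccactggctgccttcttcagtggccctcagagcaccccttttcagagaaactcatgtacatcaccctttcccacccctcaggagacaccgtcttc
Gimap4, chr6:48684328-48684627, plus strand: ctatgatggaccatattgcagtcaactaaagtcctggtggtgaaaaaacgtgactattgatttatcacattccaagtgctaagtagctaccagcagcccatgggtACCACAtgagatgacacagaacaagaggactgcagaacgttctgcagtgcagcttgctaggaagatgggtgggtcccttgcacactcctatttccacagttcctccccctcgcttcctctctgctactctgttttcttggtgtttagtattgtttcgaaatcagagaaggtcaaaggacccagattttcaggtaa
Gimap6, chr6:48708195-48708494, minus strand: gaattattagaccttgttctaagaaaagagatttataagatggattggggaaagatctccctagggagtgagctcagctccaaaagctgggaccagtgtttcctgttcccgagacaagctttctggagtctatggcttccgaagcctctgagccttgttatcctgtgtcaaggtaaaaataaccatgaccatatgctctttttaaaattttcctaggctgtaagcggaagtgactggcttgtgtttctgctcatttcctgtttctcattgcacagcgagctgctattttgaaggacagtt
Gimap9, chr6:48675885-48676184, plus strand: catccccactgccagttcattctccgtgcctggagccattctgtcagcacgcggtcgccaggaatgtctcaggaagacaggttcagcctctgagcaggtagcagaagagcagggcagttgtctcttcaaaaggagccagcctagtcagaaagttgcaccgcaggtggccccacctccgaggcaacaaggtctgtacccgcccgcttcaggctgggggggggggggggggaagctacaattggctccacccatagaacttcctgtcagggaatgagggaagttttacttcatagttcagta

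TGANTCA was in 0 of the 9 GIMAP windows and in 7.81% of all 32851 windows of the table. GTAAACA was in 1 of 9, that of Gimap3 at position -247 from the start site, and in 3.65% of all windows. TGTGGT was in 3 of 9, at -95 in Gimap1, -145 in Gimap4 and -79 in Gimap7, and in 16.8% of all windows. A match is only a stretch of letters, and binding of any factor was not measured here.

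Facts of the series that touch these values are few. FPKM summed to 502214 to 540885 per library, and 10192 to 10250 genes reached 1 FPKM in each. Depth in reads is unknown from FPKM. Judged from the commonest ratio between the smallest values of 2 libraries (17.9% to 24.3% of the genes with low values have that ratio), the other DZ libraries were 0.872 to 0.919 times as deep as Bach2(+/+) DZ replicate 1, and the LZ libraries 0.615 to 0.677 times as deep. Across genes, the replicates of a group had correlations of 0.946 to 0.960 (Pearson, log2 scale). Bach2 was higher in the libraries labelled Bach2(f/f), at 63.6 ± 1.27 FPKM in Bach2(f/f) LZ against 51.6 ± 2.49 FPKM in Bach2(+/+) LZ, and at 95.3 ± 1.25 FPKM in Bach2(f/f) DZ against 75.4 ± 1.08 FPKM in Bach2(+/+) DZ (SD, n = 2). FPKM of a whole gene include the exons outside the deleted part. Which exon is floxed is not stated in the sources used here, and the Bach2 level is therefore no check of the labels. The sorting marker Cxcr4 was at 76.0 FPKM in Bach2(f/f) LZ against 134 FPKM in Bach2(f/f) DZ, and at 75.9 FPKM in Bach2(+/+) LZ against 134 FPKM in Bach2(+/+) DZ. The other sorting marker, Cd86, was at 78.1 FPKM in Bach2(f/f) LZ against 98.3 FPKM in Bach2(+/+) LZ, and at 31.7 FPKM in Bach2(f/f) DZ against 36.6 FPKM in Bach2(+/+) DZ. Cd86 thus fell with Bach2(f/f) in LZ, as most GIMAP genes did (-0.32 on the log2 scale used below, adjusted p = 0.0238, limma), and differed by -0.20 in DZ (adjusted p = 0.162, limma). The LZ call of Cd86 was lost without Bach2(+/+) LZ replicate 2 (adjusted p = 0.0718), Bach2(f/f) LZ replicate 1 (adjusted p = 0.104) or Bach2(f/f) LZ replicate 2 (adjusted p = 0.0836), and its part in the GIMAP differences was not tested. Prdm1 was at 0.980 and 0.967 FPKM in Bach2(f/f) LZ, against 0.0577 and 0.0184 FPKM in Bach2(+/+) LZ, and at 0.258 and 0.434 FPKM in Bach2(f/f) DZ, against 0.0473 and 0.122 FPKM in Bach2(+/+) DZ, below the filter in all.

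All 8 GIMAP genes were expressed in every library. Gimap6, whose protein binds the autophagy protein GABARAPL2, had the highest mean level in all 4 groups, and Gimap5 the lowest. Over the 8 libraries Gimap6 averaged 92.7 FPKM, a level above that of 91.7% of the genes tested, and Gimap5 averaged 14.1 FPKM, above 52.7%. In Bach2(f/f) LZ the order of mean levels was Gimap6, Gimap4, Gimap1, Gimap9, Gimap3, Gimap7, Gimap8, Gimap5, and the libraries of Gimap4 and Gimap1 overlapped. In Bach2(+/+) LZ the order was Gimap6, Gimap1, Gimap4, Gimap9, Gimap3, Gimap8, Gimap7, Gimap5, with overlap of Gimap1 and Gimap4, of Gimap9 and Gimap3, and of Gimap8 and Gimap7. In Bach2(f/f) DZ Gimap4 came after Gimap6, Gimap1 and Gimap9, and was followed by Gimap3, Gimap8 and Gimap7, which overlapped with their neighbours in that order. In Bach2(+/+) DZ Gimap3 and Gimap4, which overlapped, came after Gimap6, Gimap1 and Gimap9 and before Gimap8, Gimap7 and Gimap5.

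**Figure D1:**
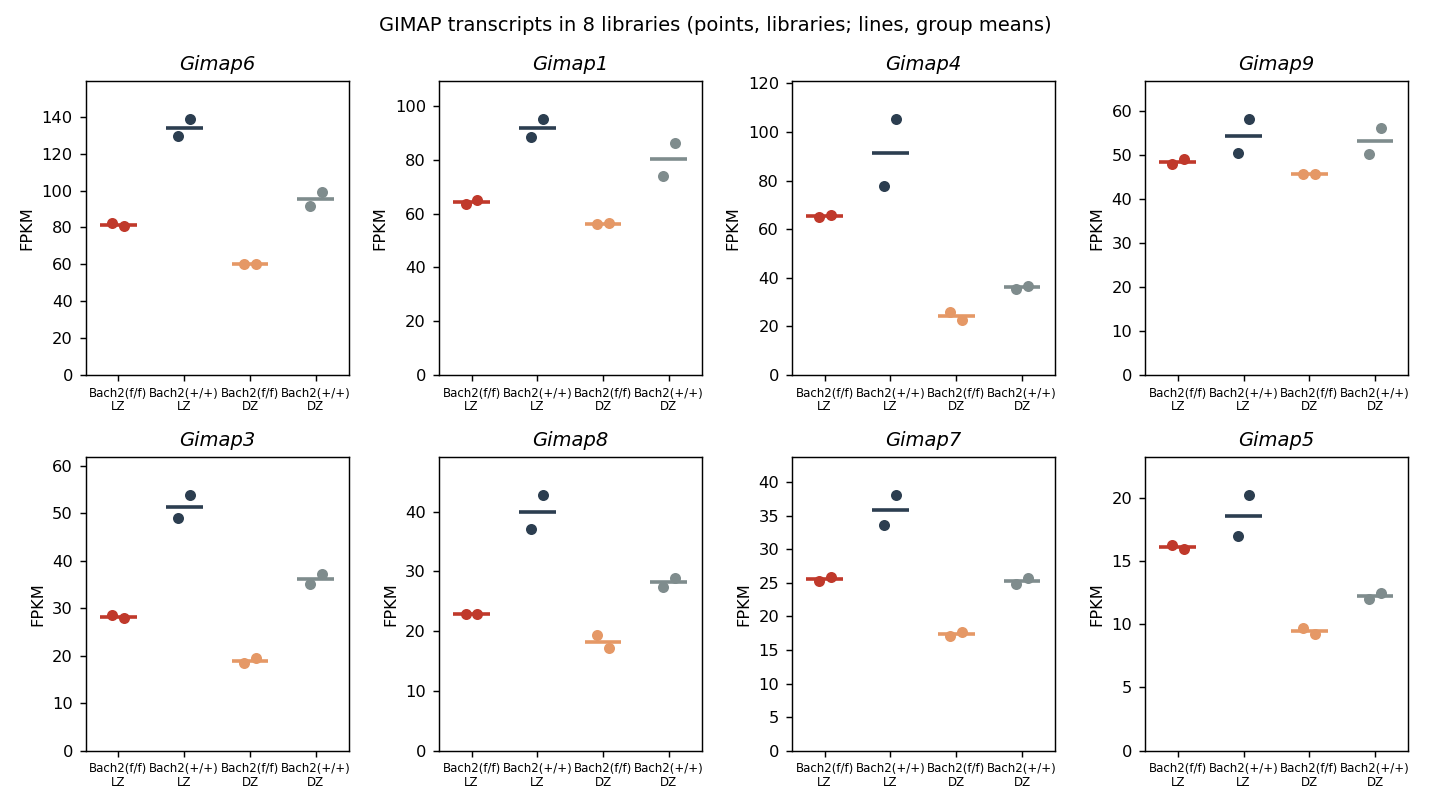
FPKM of the 8 GIMAP genes in the 8 libraries, 1 panel per gene, with the 4 groups on the horizontal axis and FPKM from 0 on the vertical axis; points are libraries and lines are group means. Gimap6 spans 60.1 to 139 FPKM and Gimap5 9.23 to 20.2 FPKM, and in every panel the Bach2(f/f) points lie below the Bach2(+/+) points of the same zone.

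In LZ cells the family was lower with Bach2(f/f): 6 of the 8 members fell, 0 rose, and Gimap5 and Gimap9 did not pass (limma across all 10610 genes, Benjamini-Hochberg, threshold adjusted p 0.05). Of all genes tested in this contrast 12.7% fell and 18.4% rose (31.1% in all). That balance depended on the scaling: 1351 genes fell and 1948 rose as deposited, 1855 fell and 1549 rose with upper quartile scaling, and 1604 fell and 1623 rose with quantile normalization, while 6 members fell and 0 rose under each. The 6 members that fell were at 54.9% to 71.5% of their mean FPKM in Bach2(+/+) LZ. The median difference of the 8 members was -0.49 on the log2(FPKM + 1) scale, beside 0.022 for all genes tested. All differences below are on that scale, which understates the change of low genes, and are given ± SE. In bulk RNA, fewer cells of a kind and less RNA per cell cannot be told apart.

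Gimap3, whose protein sits on mitochondria in the mouse, was at 28.6 and 27.8 FPKM in Bach2(f/f) LZ, against 49.0 and 53.8 FPKM in Bach2(+/+) LZ. The groups did not overlap, and the difference of -0.84 ± 0.060 (adjusted p = 0.000887, limma) was the 107th lowest of all genes tested. Gimap8, the largest of the family with several GTPase domains in 1 protein, was at 22.9 and 22.8 FPKM in Bach2(f/f) LZ, against 37.2 and 42.8 FPKM in Bach2(+/+) LZ. Gimap8 differed by -0.78 ± 0.081 (adjusted p = 0.00170, limma), with all Bach2(f/f) values low. Gimap6 was at 82.2 and 80.7 FPKM in Bach2(f/f) LZ, against 129 and 139 FPKM in Bach2(+/+) LZ. The gap between the groups of Gimap6 was several times the gap between replicates, and the difference was -0.71 ± 0.052 (adjusted p = 0.000914, limma).

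Gimap1, which mature B cells of the mouse need to survive, was at 63.7 and 65.1 FPKM in Bach2(f/f) LZ, against 88.7 and 95.2 FPKM in Bach2(+/+) LZ (-0.51 ± 0.074, adjusted p = 0.00437, limma). Gimap7, whose human protein can stimulate the GTPase of a related member, was at 25.3 and 26 FPKM in Bach2(f/f) LZ, against 33.7 and 38.1 FPKM in Bach2(+/+) LZ (-0.47 ± 0.063, adjusted p = 0.00340, limma). In both genes the Bach2(f/f) libraries lay close together and below both Bach2(+/+) libraries. Gimap4, known from T cells, where it takes part in apoptosis, was at 65.0 and 65.8 FPKM in Bach2(f/f) LZ, against 77.7 and 105 FPKM in Bach2(+/+) LZ. The Gimap4 groups did not overlap, but the Bach2(+/+) LZ libraries stood far apart from each other. The Gimap4 difference of -0.46 ± 0.14 (adjusted p = 0.0440, limma) was -0.24 (adjusted p = 0.0859) without Bach2(+/+) LZ replicate 2 and -0.68 (adjusted p = 0.00656) without Bach2(+/+) LZ replicate 1. Its adjusted p was 0.0589 to 0.145 when any library but these was left out, and 0.0612 with the replicate number as a block.

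Gimap5, a lysosomal member tied to GSK3 signalling, was at 16.2 and 16 FPKM in Bach2(f/f) LZ, against 17.0 and 20.2 FPKM in Bach2(+/+) LZ. Gimap9, about whose role little is known, was at 47.9 and 49.1 FPKM in Bach2(f/f) LZ, against 50.5 and 58.1 FPKM in Bach2(+/+) LZ. Neither overlapped, yet the differences of -0.19 ± 0.082 for Gimap5 (adjusted p = 0.125, limma) and -0.16 ± 0.078 for Gimap9 (adjusted p = 0.176, limma) did not pass. The 95% intervals were -0.39 to 0.0061 for Gimap5 and -0.34 to 0.031 for Gimap9. Without Bach2(+/+) LZ replicate 1 both passed (adjusted p = 0.0198 and 0.0484). In all, 8 of 8 members had both Bach2(f/f) LZ libraries below both Bach2(+/+) LZ libraries, as had 29.3% of all genes tested.

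In DZ cells 7 of the 8 members fell with Bach2(f/f), 0 rose, and Gimap9 did not pass, where 5.23% of all genes tested fell and 6.63% rose (11.9% in all). The median difference of the 8 was -0.53, beside 0.014 for all genes, and the 7 that fell were at 52.5% to 77.6% of their level in Bach2(+/+) DZ. Gimap3 was at 18.5 and 19.5 FPKM in Bach2(f/f) DZ, against 35.1 and 37.1 FPKM in Bach2(+/+) DZ. Its difference of -0.89 ± 0.060 (adjusted p = 0.00154, limma) was the 59th lowest of all genes. Gimap6 was at 60.1 and 60.3 FPKM in Bach2(f/f) DZ, against 91.5 and 99.1 FPKM in Bach2(+/+) DZ (-0.65 ± 0.052, adjusted p = 0.00260, limma). The groups of both genes were well apart.

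Gimap8 was at 19.3 and 17.2 FPKM in Bach2(f/f) DZ, against 27.5 and 29.0 FPKM in Bach2(+/+) DZ (-0.60 ± 0.081, adjusted p = 0.00939, limma). Gimap7 was at 17.1 and 17.7 FPKM in Bach2(f/f) DZ, against 24.8 and 25.7 FPKM in Bach2(+/+) DZ (-0.51 ± 0.063, adjusted p = 0.00821, limma). Gimap1 was at 56.1 and 56.5 FPKM in Bach2(f/f) DZ, against 74.2 and 86.4 FPKM in Bach2(+/+) DZ (-0.50 ± 0.074, adjusted p = 0.0125, limma). None of these 3 overlapped between genotypes. Gimap4 was at 25.9 and 22.6 FPKM in Bach2(f/f) DZ, against 35.4 and 36.7 FPKM in Bach2(+/+) DZ (-0.56 ± 0.14, adjusted p = 0.0479, limma). Gimap5 was at 9.73 and 9.23 FPKM in Bach2(f/f) DZ, against 12 and 12.5 FPKM in Bach2(+/+) DZ (-0.34 ± 0.082, adjusted p = 0.0485, limma). Gimap4 and Gimap5 lay just under the threshold, and with the replicate number as a block both were lost (adjusted p = 0.0732 and 0.0734). Gimap9 was at 45.8 and 45.8 FPKM in Bach2(f/f) DZ, against 50.3 and 56.2 FPKM in Bach2(+/+) DZ (-0.21 ± 0.078, adjusted p = 0.138, limma).

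The DZ calls rested more on single libraries than the LZ calls. Without Bach2(f/f) DZ replicate 1, 3 members passed (Gimap3, Gimap6 and Gimap8), and without Bach2(f/f) DZ replicate 2, 2 members passed (Gimap3 and Gimap6), while the count over all genes in either direction was 112 and 137 instead of 1258. Gimap1 had adjusted p = 0.0832 and 0.0784 in these fits, and Gimap7 had adjusted p = 0.0697 and 0.0592. Gimap8 had adjusted p = 0.0663 without Bach2(f/f) DZ replicate 2. Gimap4 and Gimap5 passed without either Bach2(+/+) LZ library and had adjusted p of up to 0.213 and 0.211 without any other. The sign of all 16 genotype differences held in every alternative run. In DZ, too, 8 of 8 members had both Bach2(f/f) libraries below both Bach2(+/+) libraries, as had 26.3% of all genes tested.

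Across both zones, 6 of the 8 members fell with Bach2(f/f) in LZ and again in DZ (Gimap1, Gimap3, Gimap4, Gimap6, Gimap7 and Gimap8), as did 4.53% of all genes tested. The difference between the zones in the genotype effect was tested as an interaction, and 0 of 8 members passed, with 3 genes (0.0283%) passing in all. The interaction values of the members lay between -0.17 for Gimap8 and 0.14 for Gimap5 (adjusted p 0.598 to 0.991, limma), and 0 of 8 had an unadjusted p under 0.05. Their 95% intervals reached from -0.45 at the lowest to 0.56 at the highest, so differences of that size between the zones remain possible.

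**Figure D2:**
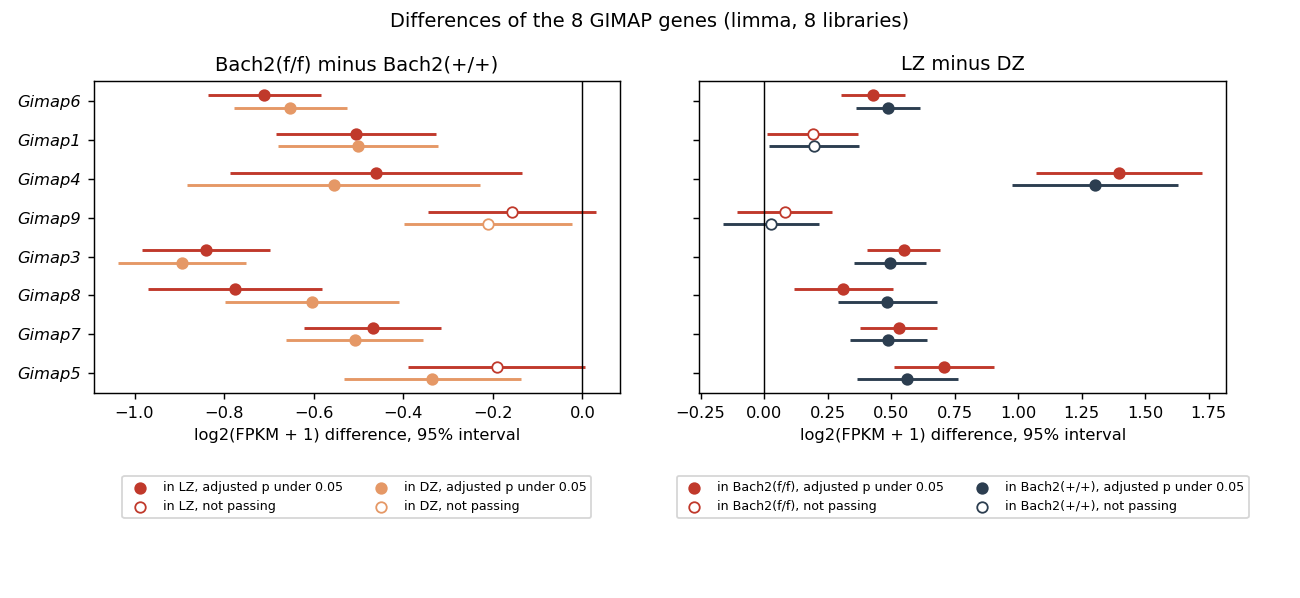
Differences of the 8 GIMAP genes on the log2(FPKM + 1) scale with 95% intervals from limma (8 libraries), Bach2(f/f) minus Bach2(+/+) on the left (LZ and DZ) and LZ minus DZ on the right (Bach2(f/f) and Bach2(+/+)); filled points passed an adjusted p of 0.05 and open points did not. Gimap3 has the lowest genotype values (-0.84 and -0.89) and Gimap4 the highest zone values (1.40 and 1.30), while Gimap9 is open in all 4.

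The family was higher in LZ than in DZ in both genotypes. In Bach2(f/f) cells 6 of 8 members were higher in LZ (Gimap3, Gimap4, Gimap5, Gimap6, Gimap7 and Gimap8) and 0 lower, where 18% of all genes tested were higher and 16.1% lower (34.1% in all). In Bach2(+/+) cells the same 6 passed, 0 were lower, and 15.2% of all genes tested were higher and 16.1% lower (31.2% in all). The median difference of the 8 members was 0.48 in Bach2(f/f) and 0.49 in Bach2(+/+), beside 0.0065 and -0.0045 for all genes. The LZ libraries were shallower than the DZ libraries, as given above, and the part of depth in these differences was not tested.

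Gimap4 had the highest zone differences of the 8 members. From the values above, both of its LZ libraries in each genotype lay well above both DZ libraries, at 2.70 times the DZ mean in Bach2(f/f) and 2.54 times in Bach2(+/+). Its differences of 1.40 ± 0.14 in Bach2(f/f) (adjusted p = 0.000752, limma) and 1.30 ± 0.14 in Bach2(+/+) (adjusted p = 0.00117, limma) ranked 78th and 75th from the highest of all genes. Gimap5 followed with 0.71 ± 0.082 in Bach2(f/f) (adjusted p = 0.00144, limma) and 0.56 ± 0.082 in Bach2(+/+) (adjusted p = 0.00399, limma). Thus Gimap5, which was among the members with the smallest genotype differences, had the second highest zone differences. Gimap3, Gimap6 and Gimap7 were higher in LZ by 0.43 to 0.55 in Bach2(f/f) (adjusted p 0.00112 to 0.00172, limma) and by 0.49 to 0.50 in Bach2(+/+) (adjusted p 0.00130 to 0.00253, limma).

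Gimap8 was higher in LZ by 0.31 in Bach2(f/f) (adjusted p = 0.0265, limma) and by 0.49 in Bach2(+/+) (adjusted p = 0.00627, limma). The call in Bach2(f/f) was lost without Bach2(f/f) LZ replicate 1 (adjusted p = 0.10), Bach2(f/f) LZ replicate 2 (adjusted p = 0.0974) or Bach2(f/f) DZ replicate 2 (adjusted p = 0.135). Gimap1 had differences of 0.19 in Bach2(f/f) (adjusted p = 0.0930, limma) and 0.20 in Bach2(+/+) (adjusted p = 0.0904, limma), with no overlap between the zones in either genotype. It passed in Bach2(f/f) without Bach2(+/+) DZ replicate 1 (adjusted p = 0.0266) or 2 (adjusted p = 0.0269), and in Bach2(+/+) without Bach2(+/+) DZ replicate 2 (adjusted p = 0.0201). Gimap9 differed by 0.082 in Bach2(f/f) (adjusted p = 0.459, limma) and 0.027 in Bach2(+/+) (adjusted p = 0.820, limma), where the zones overlapped. The 95% intervals of Gimap9 reached from -0.16 to 0.27 over both genotypes. Both LZ libraries lay above both DZ libraries for 8 of 8 members in Bach2(f/f), as for 37.7% of all genes, and for 7 of 8 in Bach2(+/+), as for 32.7%.

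Members that were lower with Bach2(f/f) in both zones and higher in LZ in both genotypes numbered 5 of 8 (Gimap3, Gimap4, Gimap6, Gimap7 and Gimap8), beside 1.67% of all genes tested (177 genes). The contrasts share libraries, so these 4 calls are not independent of each other.

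The summed level of the 8 genes gives the family as a whole. It was 352 and 353 FPKM in Bach2(f/f) LZ, against 483 and 552 FPKM in Bach2(+/+) LZ, and 253 and 249 FPKM in Bach2(f/f) DZ, against 351 and 383 FPKM in Bach2(+/+) DZ. The sum in Bach2(f/f) was 68.1% of that in Bach2(+/+) in LZ and 68.4% in DZ, and the sum in LZ was 1.41 times that in DZ in each genotype. The Bach2(f/f) LZ libraries lay at about the level of the lower Bach2(+/+) DZ library. No test was run on the sum. The spread between replicates differed between genotypes: the SD of the sum was 0.939 FPKM in Bach2(f/f) LZ, 48.8 FPKM in Bach2(+/+) LZ, 2.60 FPKM in Bach2(f/f) DZ and 22.6 FPKM in Bach2(+/+) DZ (n = 2 each). All 8 members were higher in replicate 2 than in replicate 1 of Bach2(+/+) LZ, and likewise of Bach2(+/+) DZ, where 44.5% and 58.5% of all genes were. The median gap between the replicates of Bach2(+/+) LZ was 0.18 for the members and 0.098 for all genes, while in Bach2(f/f) LZ it was 0.029 and 0.070 (log2 scale). The fit used 1 spread for all groups of a gene.

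The make-up of the sum moved with zone and genotype. Gimap4 made up 18.5% of it in Bach2(f/f) LZ and 17.6% in Bach2(+/+) LZ, against 9.67% in Bach2(f/f) DZ and 9.84% in Bach2(+/+) DZ. Gimap9 made up 13.8% in Bach2(f/f) LZ, against 10.5% in Bach2(+/+) LZ, and 18.3% in Bach2(f/f) DZ, against 14.5% in Bach2(+/+) DZ. Gimap3 moved the other way, with 8.01% in Bach2(f/f) LZ, against 9.94% in Bach2(+/+) LZ, and 7.57% in Bach2(f/f) DZ, against 9.86% in Bach2(+/+) DZ. Gimap6 held 23.1% to 26% and Gimap7 6.89% to 7.27% of the sum in every group.

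**Figure D3:**
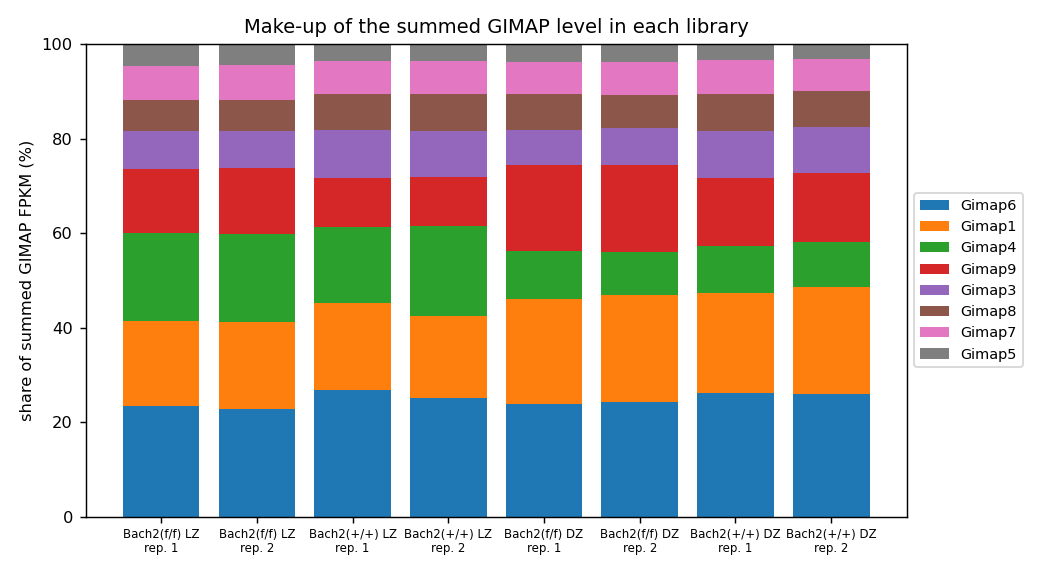
Share of each GIMAP gene in the summed GIMAP FPKM (vertical axis, percent) of each of the 8 libraries (horizontal axis). The Gimap4 band is widest in the 4 LZ libraries (group means 18.5% and 17.6%, against 9.67% and 9.84% in DZ), and the Gimap9 band is wider in Bach2(f/f) than in Bach2(+/+) libraries of the same zone.

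Ratios within a library do not depend on its scaling. The ratio of Gimap3 to its close relative Gimap5 was 1.76 and 1.74 in Bach2(f/f) LZ, against 2.88 and 2.66 in Bach2(+/+) LZ, and 1.90 and 2.11 in Bach2(f/f) DZ, against 2.93 and 2.98 in Bach2(+/+) DZ. Genotypes did not overlap in either zone. The pair sets the member with the largest genotype differences against one with small ones, and no test was run on the ratio. The ratio of Gimap4 to Gimap9 was 1.36 and 1.34 in Bach2(f/f) LZ, against 0.564 and 0.495 in Bach2(f/f) DZ, and 1.54 and 1.81 in Bach2(+/+) LZ, against 0.703 and 0.654 in Bach2(+/+) DZ. All LZ libraries were above 1 and all DZ libraries below it.

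Reads can be shared within the locus, and how the authors assigned such reads is not given in the sources used here. Of all 50-base words in the GENCODE M21 transcripts of Gimap3, 7.52% also occur in Gimap5, and 4.53% of those of Gimap5 occur in Gimap3. Of the Gimap1 words 32.4% lie antisense to Gimap1os, which was not analysed here, and nothing says that the library kit marks the strand: reads of the 2 genes cannot be told apart. A gene model that reads through the locus, Gm28053, shares 4.78% of the Gimap1, 2.5% of the Gimap5 and 1.39% of the Gimap7 words. Gimap4, Gimap8 and Gimap9 shared 0% with any other gene.

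The genes on either side of the cluster gave other values. Of 4 flanking genes past the filter, 1 rose in LZ with Bach2(f/f) and 0 passed in DZ. Beside them, 18.4% of all genes tested rose in LZ and 11.9% passed in DZ. Repin1, a zinc finger gene, differed by 0.45 (adjusted p = 0.0274, limma) in LZ, and by 0.27 (adjusted p = 0.179, limma) in DZ. The LZ count was 0 without either Bach2(f/f) library of either zone or without Bach2(+/+) LZ replicate 2, 1 without either Bach2(+/+) DZ library and 2 without Bach2(+/+) LZ replicate 1. Zfp775, the nearest on the Gimap8 side, differed by -0.21 (adjusted p = 0.0841, limma) in LZ, and by 0.11 (adjusted p = 0.434, limma) in DZ. Lrrc61 differed by -0.15 and -0.17 and Rarres2 by 0.12 and -0.082, with none passing. The Lrrc61 differences lay near those of Gimap9 (-0.16 in LZ and -0.21 in DZ). The Zfp775 difference in LZ lay near that of Gimap5 (-0.19). On the Gimap3 side Tmem176b and Tmem176a stayed below the filter, at no more than 0.972 and 0.588 FPKM in any library.

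**Figure D4:**
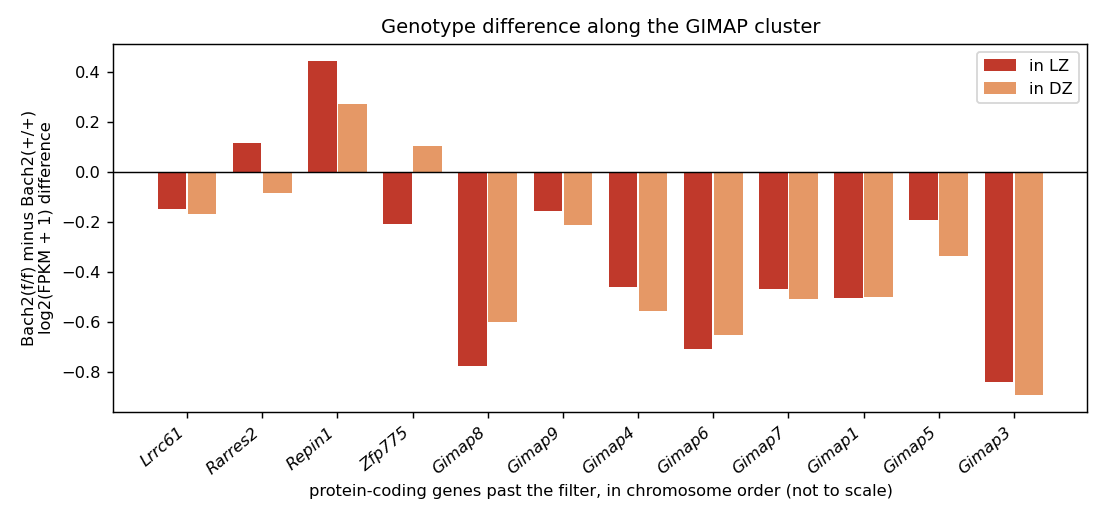
Bach2(f/f) minus Bach2(+/+) difference on the log2(FPKM + 1) scale (vertical axis) in LZ and DZ for the protein-coding genes past the filter, in chromosome order and not to scale (horizontal axis). All 16 bars of the 8 GIMAP genes are below 0, from -0.16 to -0.89, while the 8 bars of the 4 flanking genes lie between -0.21 and 0.45.

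Genes of GSK3 and beta-catenin signalling, the BCL2 family and autophagy, pathways tied to GIMAP proteins and called partner genes below, showed no common direction. A direct link of each to a GIMAP protein was not examined here. Of 14 tested, 3 rose and 1 fell in LZ, where 18.4% of all genes tested rose and 12.7% fell. In DZ 0 rose and 1 fell, where 6.63% of all genes rose and 5.23% fell. The medians were -0.035 in LZ and 0.026 in DZ, and the counts lay near the shares of all genes. The split in LZ depended on the scaling, with 1 higher and 4 lower after upper quartile scaling and 2 higher and 4 lower after quantile normalization, and in DZ 0 were higher and 2 lower under either. Map1lc3a, an autophagosome membrane gene, was at 1.78 FPKM in Bach2(f/f) LZ against 3.32 FPKM in Bach2(+/+) LZ (-0.63, adjusted p = 0.00309, limma) and differed by -0.68 in DZ (adjusted p = 0.00810, limma). Ctnnb1, which encodes beta-catenin, rose by 0.17 (adjusted p = 0.0187, limma), the autophagy gene Atg5 by 0.23 (adjusted p = 0.0193, limma) and Gabarapl1, an autophagosome gene, by 0.39 (adjusted p = 0.0317, limma) in LZ. Gabarapl1 lay near the filter, at 1.77 FPKM in Bach2(f/f) LZ against 1.12 FPKM in Bach2(+/+) LZ. With 1 library left out, 1 to 3 partner genes passed in LZ and 0 or 1 in DZ. Bcl2, reported to bind some members and a survival gene of resting B cells, was below the filter.

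Of 15 factors of lymphocyte quiescence and recirculation tested, 0 rose and 6 fell in LZ (median -0.31), and 0 rose and 4 fell in DZ (median -0.16). Among all genes tested, 18.4% rose and 12.7% fell in LZ, and 6.63% rose and 5.23% fell in DZ. The anti-proliferative genes Btg1 and Btg2 differed by -0.85 (adjusted p = 0.00133, limma) and -0.48 (adjusted p = 0.00107, limma) in LZ, and Cdkn1b, which encodes the cell cycle inhibitor p27, differed by -0.93 (adjusted p = 0.00191, limma). Foxp1, a transcription factor of resting B cells, differed by -0.34 in LZ (adjusted p = 0.00505, limma) and by -0.15 in DZ (adjusted p = 0.131, limma). In DZ the 4 were Btg1, Btg2, Cdkn1b and Slfn2, the last named after its values were seen. Between zones, 18% of all genes tested were higher and 16.1% lower in LZ in Bach2(f/f), and 15.2% higher and 16.1% lower in Bach2(+/+). In the zone contrasts 2 of 15 were higher and 5 lower in LZ in Bach2(f/f), and 3 higher and 5 lower in Bach2(+/+), where 2 were higher and 3 lower without Bach2(+/+) DZ replicate 1. The LZ count for genotype was 5 or 6 with 1 library left out. The DZ count was 0 without Bach2(f/f) DZ replicate 1, 2 without replicate 2 and 1 without Bach2(+/+) DZ replicate 1.

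Another set of GTPase genes of immunity held the interferon-induced Gbp and Irg genes, Gvin1 and the Mx genes. Mx1 and Mx2 were among those below the filter. Of 9 tested, which were Gbp and Irg genes and Gvin1, 0 were higher and 6 lower in LZ (median -0.59). In DZ 0 were higher and 4 lower (median -0.46). The share of all genes tested that was lower was 12.7% in LZ and 5.23% in DZ, with 18.4% and 6.63% higher. Gbp2 was at 1.98 FPKM in Bach2(f/f) LZ against 6.88 FPKM in Bach2(+/+) LZ (-1.40, adjusted p = 0.000997, limma), and differed by -1.09 in DZ (adjusted p = 0.00541, limma). Gbp4, Igtp and Gbp9 differed by -0.67, -0.59 and -0.88 in LZ and by -0.48, -0.32 and -0.59 in DZ. With 1 library left out the count was 4 to 7 in LZ, and in DZ it was 1 without Bach2(f/f) DZ replicate 1, Bach2(f/f) DZ replicate 2 or Bach2(+/+) DZ replicate 1, 2 without Bach2(+/+) DZ replicate 2 or either Bach2(f/f) LZ library, and 3 without either Bach2(+/+) LZ library. In the zone contrasts 2 of 9 were higher in LZ and 1 lower in Bach2(f/f), and 3 higher and 0 lower in Bach2(+/+). Higher in LZ were 6 of 8 GIMAP members in each, and 18% and 15.2% of all genes tested, with 16.1% lower in each. Leaving out 1 library gave 0 to 3 calls in Bach2(f/f), with 0 without Bach2(f/f) DZ replicate 1 and 1 without either Bach2(f/f) LZ library.

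GIMAP genes are high in resting lymphocytes, so markers of other cells were read beside them. The defining T cell markers Cd3e, Cd3d, Cd3g, Bcl11b and Themis summed to 0.272 to 0.331 FPKM in Bach2(f/f) LZ, 0.343 to 0.344 FPKM in Bach2(+/+) LZ, 0.00144 to 0.177 FPKM in Bach2(f/f) DZ and 0.112 to 0.267 FPKM in Bach2(+/+) DZ, and none of the 5 passed the filter. Of 15 T cell markers 3 passed the filter (Lck, Lat and Cd8b1), and 0 of these changed with genotype, 1 when Bach2(+/+) LZ replicate 1 was left out in LZ. The T cell list as a whole summed to 69.5 to 71.1 FPKM in Bach2(f/f) LZ, 61.2 to 66.1 FPKM in Bach2(+/+) LZ, 35.9 to 39.0 FPKM in Bach2(f/f) DZ and 37.8 to 38.9 FPKM in Bach2(+/+) DZ, most of it Lck, and Lck and Lat were higher in LZ in both genotypes. Of 8 NK cell markers 0 passed the filter. Of 9 endothelial markers 1 did, Pecam1, an adhesion gene that B cells also express, which fell by 0.71 in LZ (adjusted p = 0.00151, limma). In DZ Pecam1 fell by 0.44 (adjusted p = 0.0148, limma), a call lost without either Bach2(f/f) DZ library or Bach2(+/+) DZ replicate 1. Kdr, Emcn and Cldn5 were listed at 0 in all libraries.

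Genes that mark naive or marginal zone B cells moved with the GIMAP genes. Of 8 tested, 0 rose and 4 fell in LZ with Bach2(f/f), and 0 rose and 5 fell in DZ, and their part in the GIMAP result was not tested. For all genes tested the shares were 18.4% and 12.7% in LZ, and 6.63% and 5.23% in DZ. The list of 11 genes summed to 273 to 281 FPKM in Bach2(f/f) LZ, 471 to 510 FPKM in Bach2(+/+) LZ, 108 to 111 FPKM in Bach2(f/f) DZ and 178 to 186 FPKM in Bach2(+/+) DZ. Fcer2a, which encodes CD23, differed by -0.98 (adjusted p = 0.000598, limma) in LZ, and by -1.26 (adjusted p = 0.000157, limma) in DZ. Cd38, whose protein the sort selected against, differed by -0.92 in LZ and -0.61 in DZ, the complement receptor gene Cr2 by -0.78 and -0.61, and the adaptor gene Bank1 by -0.43 and -0.29. Gpr183, a homing receptor gene named after its values were seen, was the fifth in DZ. The LZ count was 4 with any library left out, and the DZ count was 1 without Bach2(f/f) DZ replicate 1, Bach2(f/f) DZ replicate 2 or Bach2(+/+) DZ replicate 1. In the zone contrasts 6 of 8 were higher in LZ in each genotype, as were 18% of all genes tested in Bach2(f/f) and 15.2% in Bach2(+/+). In Bach2(f/f) 0 were lower and in Bach2(+/+) 1 was lower, beside 16.1% of all genes in each. The lower gene was S1pr1, a receptor for exit from lymphoid tissue, at 1.55 and 0.804 FPKM in Bach2(+/+) LZ against 2.88 and 2.04 FPKM in Bach2(+/+) DZ (-0.68, adjusted p = 0.0346, limma). Its adjusted p was 0.0124 without Bach2(+/+) LZ replicate 1, 0.0466 without Bach2(+/+) DZ replicate 2 and 0.0562 to 0.150 without any other library. Ccr7, S1pr1 and Klf2 are among the genes that also stand in the quiescence list.

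Markers of germinal centre B cells were at high levels in every library. Of 12 tested, 2 rose and 5 fell in LZ (median -0.091) and 1 rose and 4 fell in DZ (median -0.11). Over all genes tested 18.4% rose and 12.7% fell in LZ, and 6.63% rose and 5.23% fell in DZ. S1pr2, a receptor that confines cells to the germinal centre, rose in both zones, by 0.31 (adjusted p = 0.00522, limma) in LZ, and by 0.25 (adjusted p = 0.0235, limma) in DZ. Cd79a and Cd79b, which encode the signalling chains of the B cell receptor, differed by -0.26 and -0.21 in LZ and by -0.30 and -0.24 in DZ. The DZ count was 0 without either Bach2(f/f) DZ library, 1 without either Bach2(f/f) LZ library, 2 without Bach2(+/+) DZ replicate 1 and 3 without Bach2(+/+) DZ replicate 2.

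Myeloid markers stood apart by library and zone. The list of 9 summed to 27.8 and 151 FPKM in Bach2(f/f) LZ, 17.0 and 65.0 FPKM in Bach2(+/+) LZ, 5.12 and 6.58 FPKM in Bach2(f/f) DZ and 7.23 and 8.92 FPKM in Bach2(+/+) DZ. S100a8 and S100a9 led only in replicate 2 of the LZ groups. They were at 53.1 and 50.7 FPKM there in Bach2(f/f), and at 21.7 and 19.8 FPKM in Bach2(+/+). Mpeg1 was the highest of the list in every other library. It was at 7.34 FPKM in Bach2(f/f) LZ replicate 1, 10.5 FPKM in Bach2(+/+) LZ replicate 1 and 3.91 to 6.83 FPKM in DZ. With genotype 1 of 5 tested rose (Tyrobp) and 1 fell (Mpeg1) in LZ, where 0 rose and 1 fell with upper quartile scaling, and 0 passed in DZ. By comparison, 31.1% of all genes tested passed in LZ and 11.9% in DZ. In the zone contrasts 4 were higher in LZ in Bach2(f/f) and 1 in Bach2(+/+), beside 18% and 15.2% of all genes tested. In both LZ groups this sum was several times higher in replicate 2 than in replicate 1. Between those replicates (2 minus 1) the GIMAP genes differed by -0.039 to 0.035 on the log2 scale in Bach2(f/f) LZ, and by 0.098 to 0.43 in Bach2(+/+) LZ, where all 8 were higher in replicate 2. The part of the myeloid markers in the GIMAP differences was not tested. The myeloid counts were 0 to 2 for genotype in LZ, 0 or 1 for genotype in DZ, 2 to 5 for zone in Bach2(f/f) and 1 to 3 for zone in Bach2(+/+) with 1 library left out.

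The genes whose pattern over the 8 libraries was most like the mean of the members were sought among 7234 genes with a mean of at least 5 FPKM, by the root mean square difference of centred log2(FPKM + 1) values. They were H2-M3 (0.046), AW112010 (0.058), Ly6d (0.073), Gpr18 (0.074) and Tlr1 (0.077). Among the members Gimap7 was nearest to the mean (0.032), and Gimap9 (0.29) and Gimap4 (0.42) were farthest. H2-M3, a nonclassical MHC class I gene, was at 38.8 ± 0.324 FPKM in Bach2(f/f) LZ, against 52.1 ± 5.58 FPKM in Bach2(+/+) LZ, and at 25.6 ± 1.71 FPKM in Bach2(f/f) DZ, against 36.8 ± 2.40 FPKM in Bach2(+/+) DZ (SD, n = 2). The genes most like Gimap6 were Ifi47 (0.050), Tlr1 (0.074) and H2-T23 (0.076). Ifi47 was at 13.7 ± 0.0654 FPKM in Bach2(f/f) LZ, against 23.1 ± 0.430 FPKM in Bach2(+/+) LZ, and at 10.5 ± 0.203 FPKM in Bach2(f/f) DZ, against 16.8 ± 1.61 FPKM in Bach2(+/+) DZ (SD, n = 2). These genes were chosen for their likeness, so it is a description with no test.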

How the data were processed

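RNA of sorted donor germinal centre B cells was sequenced as 8 libraries in 4 groups, with the NEBNext Ultra RNA kit on an Illumina instrument, per the labels' protocols. The deposited table holds FPKM values for 23234 gene symbols in 8 columns, per the file headers, and a row of codes for the libraries was dropped. The submitters' processing notes list the genome mm9 and the tools TopHat2 2.0.8 and Cufflinks 2.1.1 without saying what each did. Counts were not analysed here.

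Values were taken as log2(FPKM + 1). The 10610 genes that reached 1 FPKM in 2 or more libraries were fitted with limma 3.58.1 in R 4.3.3, as means of the 4 groups with a variance trend (4 residual and 2.46 prior degrees of freedom), 2-sided, with Benjamini-Hochberg adjustment over all genes within each contrast. The fit was tested on simulated data. The 8 members and the gene lists were chosen with earlier results of these data known. Of each other list, up to 4 genes with the smallest p in LZ and those passing in both zones are named. Some genes of these lists are counted but not reported here by name. Promoter windows are from RefSeq GRCm38.p6, which is not the build of the files, and protein sequences were not used here. Alternatives were other pseudocounts, filters, scalings and variance priors, a replicate block, the 4 libraries compared alone, and leaving out each library.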

Additional observations from a re-analysis of the deposited data

How the results depend on the processing

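With 2 libraries a group, precision is limited by their number, and depth in reads is unknown. All 16 genotype differences of the members kept their sign in every alternative, as did 15 of 16 zone differences. Calls that held in every alternative were those of Gimap1, Gimap3, Gimap6, Gimap7 and Gimap8 for genotype in LZ (5 of 6), Gimap3 and Gimap6 for genotype in DZ (2 of 7), Gimap3, Gimap4, Gimap5, Gimap6 and Gimap7 for zone in Bach2(f/f) (5 of 6) and all 6 for zone in Bach2(+/+). The count of members called with 1 library left out was 5 to 8 for genotype in LZ, 2 to 7 for genotype in DZ, 5 to 7 for zone in Bach2(f/f), 6 or 7 for zone in Bach2(+/+) and 0 for the interaction.

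The marginal calls were lost under further settings. Gimap4 in LZ had adjusted p = 0.0848 with no filter, 0.0550 with no variance trend and 0.0846 with only the LZ libraries (limma). Gimap4 and Gimap5 in DZ had adjusted p of 0.0575 and 0.0618 with a pseudocount of 5, 0.0941 and 0.0859 with no filter, 0.0612 and 0.0533 with quantile normalization, and 0.0626 and 0.0597 with no variance trend (limma). The cause of these losses was not tested.

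Over all genes, leaving out 1 library gave 1703 to 3158 calls for genotype in LZ (3299 with all), 112 to 1346 for genotype in DZ (1258), 2007 to 3864 for zone in Bach2(f/f) (3623), 2006 to 3032 for zone in Bach2(+/+) (3312) and 2 to 6 for the interaction (3). With only the 4 libraries compared, 772 genes were called for genotype in DZ and 1895 for zone in Bach2(+/+), where fewer samples enter the fit. With no filter on low values 5 genes were called for the interaction. Upper quartile scaling put the summed GIMAP level in Bach2(f/f) LZ at 345 FPKM, against 353 FPKM as deposited. Deviations of same-numbered libraries correlated at -0.108 to 0.124 between groups, with 0.101 between genotypes in LZ and 0.124 in DZ. Each group gives only 1 such deviation per gene, so this cannot decide whether same-numbered libraries share a pool or batch. Single genes, picked by their values, did go with the number. Klf2 was at 10.5 and 11.3 FPKM in replicate 1 of Bach2(+/+) LZ and DZ, against 3.94 and 3.49 FPKM in replicate 2. In Bach2(f/f) LZ and DZ it was at 3.00 and 4.38 FPKM, against 4.13 and 4.07 FPKM. With the replicate block 5 members were called in LZ and 5 in DZ, with 6 in each zone contrast, and 2994 and 881 genes in all for genotype in LZ and DZ; the block changed no other call of a member than Gimap4 in LZ and DZ and Gimap5 in DZ.

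Signs turned only among differences near 0. For zone in Bach2(+/+), Gimap9 ranged from -0.073 (without Bach2(+/+) LZ replicate 2) to 0.13, and was -0.051 without Bach2(+/+) DZ replicate 1. With quantile normalization the interactions were -0.018 for Gimap3, -0.00044 for Gimap7 and -0.012 for Gimap9. With 1 library left out the interaction ranged from -0.11 to 0.10 for Gimap1, -0.013 to 0.12 for Gimap3, -0.12 to 0.31 for Gimap4, -0.046 to 0.13 for Gimap7 and -0.045 to 0.15 for Gimap9. The cause was not tested.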
